A study of Mus musculus with 16 samples.

Results

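Levels of 10 marker genes of brain endothelium, the cells that line blood vessels, were read in RNA sequencing of mouse hippocampal CA1. The genes are Cldn5, Flt1, Pecam1, Slc2a1, Vwf, Tek, Kdr, Ly6c1, Cdh5 and Emcn, and all 10 were found by gene symbol among the 17986 genes that the home cage and exploration tables share. Of the 10, 6 reached 1 FPKM in at least 2 libraries and entered the tests, which covered 11892 genes, and 4 did not. FPKM is the number of fragments per kilobase of transcript, scaled to the library's fragments, so levels of different genes can be set side by side.

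The mice were male, 3 to 6 months old and of C57Bl6 background, with a genotype label of wild type or Neil3-/- (deficient for the DNA glycosylase Neil3, given as N3 -/- on the samples). Home cage mice (2 libraries labelled wild type, 2 labelled Neil3-/-) had no intervention. Spatial exploration mice numbered 3 and 3. The protocol describes 1 training, of 1 week at 20 min per day in an open field with sides of 50 cm and death 20 min after the last session. It does so under the name of learning, and that the mice labelled spatial exploration went through it is read from the series title and group sizes, not stated for each sample. CA1 was cut by laser from frozen sections of 8 µm, and the brains had not been perfused, so blood had not been washed out. The labels list 16 samples, and 6 of a learning condition were not analysed here. The design text gives as many animals as there are libraries in each of these groups, and no batch is named.

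Endothelial cells of the brain form the blood-brain barrier. Tight junctions seal the gaps between neighbouring cells, and transporters in their membranes carry glucose, amino acids and hormones into the tissue. Vascular endothelial growth factor and angiopoietin receptors on the same cells control vessel growth and stability. In a bulk sample such as this one, fewer endothelial cells and less RNA per cell cannot be told apart.

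Promoter sequence is shown for Cldn5 and Slc2a1, the most abundant junction gene and the most abundant transporter gene among the 10. RefSeq (GRCm38.p6, the build family that the submitters' processing notes name) held promoter entries for 7 of the 10 genes. For these 2 genes the window ends directly before the first annotated base of the gene. The 250 bases upstream of the start are given 5′ to 3′ on the plus strand, Cldn5 at chr16:18776597-18776846 and Slc2a1 at chr4:119108495-119108744. Capitals mark every match, on both strands, to 3 motifs: the CCAAT box (letters CCAAT, which read ATTGG on the other strand), the hypoxia response core (ACGTG, or CACGT on the other strand) and the ETS core (GGAA, or TTCC on the other strand).
Cldn5: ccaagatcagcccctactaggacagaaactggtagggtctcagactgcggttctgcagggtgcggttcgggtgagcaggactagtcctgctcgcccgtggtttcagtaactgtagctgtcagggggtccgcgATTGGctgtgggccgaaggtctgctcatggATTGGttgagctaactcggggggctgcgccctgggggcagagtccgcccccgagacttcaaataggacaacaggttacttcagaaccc
Slc2a1: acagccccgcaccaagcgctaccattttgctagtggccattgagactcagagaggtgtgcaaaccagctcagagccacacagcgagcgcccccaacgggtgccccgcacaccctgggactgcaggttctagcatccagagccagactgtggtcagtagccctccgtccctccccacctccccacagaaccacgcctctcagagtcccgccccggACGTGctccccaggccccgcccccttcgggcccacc
The Cldn5 window holds 2 copies of CCAAT, both as ATTGG, and Slc2a1 holds none, against 33.8% of 32851 promoter windows of this length with at least 1. The Slc2a1 window holds 1 ACGTG, which 16.6% of windows hold. Neither window holds GGAA, which 93.4% of windows hold. Of the 8 promoter entries of the 10 genes, 6 hold it, those of Emcn, Tek, Kdr, Flt1 and Ly6c1.

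Depth was alike across libraries, at an estimated 18400000 to 19600000 fragments each, and 11114 to 11623 genes reached 1 FPKM. Neil3 was used as a check of the genotype labels and went against them. Libraries labelled Neil3-/- had 12.86 FPKM ± 2.87 (SD, n = 5) and those labelled wild type 0.01 FPKM (exact two-sided permutation p 0.00794, the smallest that 252 splits can give). Whether these fragments came from an altered allele cannot be read from a gene total. The groups are therefore called WT-labelled and KO-labelled, and a direction between them is that of the labels. Choroid plexus markers stood apart in WT-labelled home cage library 1 (a summed level of 235.75 FPKM) and in WT-labelled exploration libraries 1 and 2 (131.81 and 108.33), against 9.48 to 17.84 in the other 7. The CA1 neuron list was far above the endothelial one, at 3526.49 to 4656.11 FPKM summed, against 29.08 to 42.95 for the 10 endothelial genes.

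The endothelial genes fell into an abundant and a scarce set. Ly6c1, Cldn5 and Slc2a1 averaged 10.8, 9.91 and 9.08 FPKM over the 10 libraries and held 81% to 87.5% of the summed level in every library. Emcn, Pecam1 and Flt1 averaged 1.89, 1.34 and 1.16 FPKM. Tek, Cdh5, Kdr and Vwf averaged 0.564, 0.534, 0.407 and 0.125 FPKM, and none of them reached 1 FPKM in any library. At the estimated depth, Vwf rested on about 8 to 33 fragments per library and Slc2a1 on about 425 to 718.

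**Figure D1:**
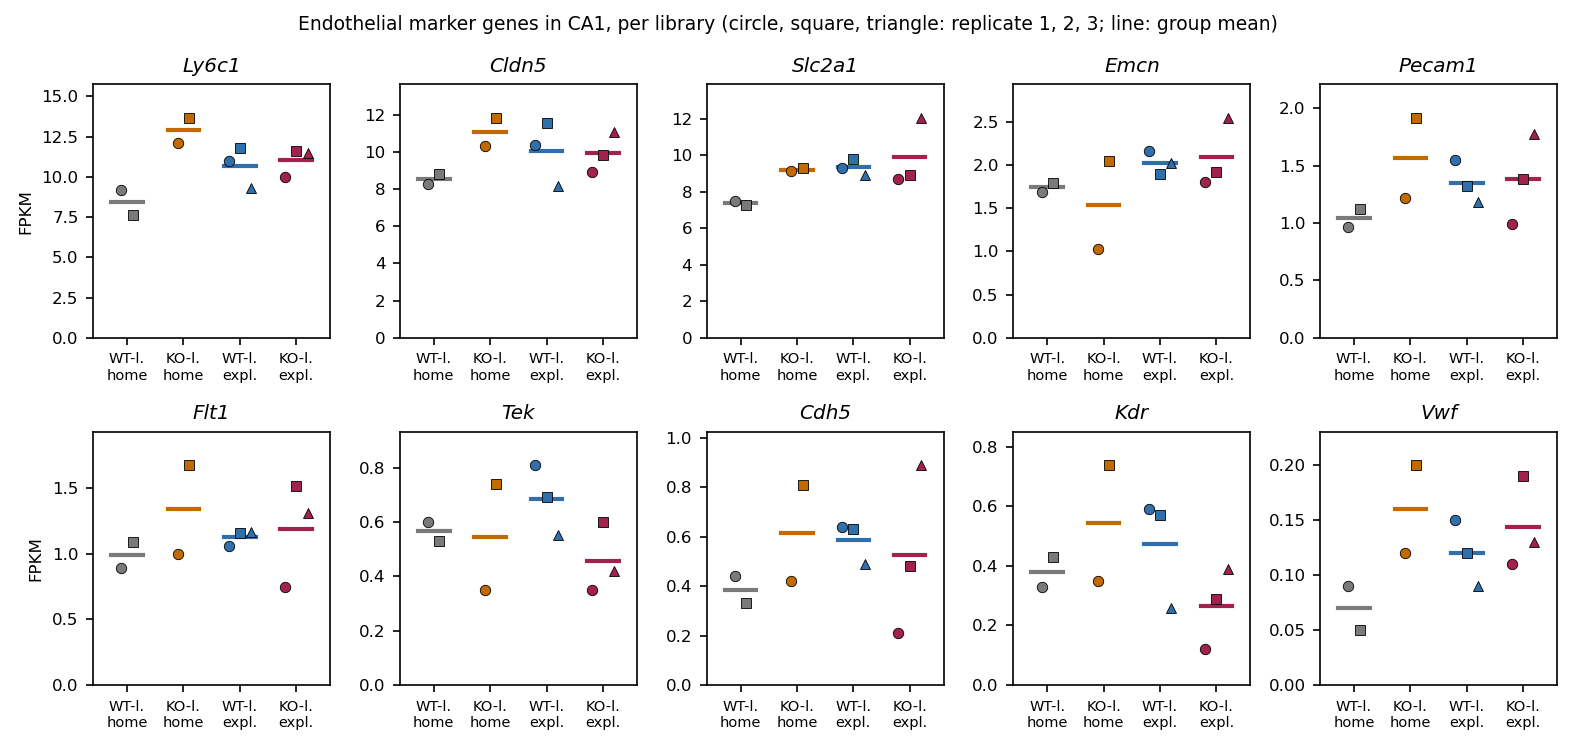
FPKM of each endothelial marker gene (vertical axes from 0, a separate scale per gene) in the 4 groups; points are libraries, with circle, square and triangle for replicates 1, 2 and 3, and lines are group means. Ly6c1, Cldn5 and Slc2a1 lie between 7.26 and 13.69 FPKM, and Vwf does not exceed 0.2 FPKM.

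Barrier genes come first. Cldn5 (gene ID 12741, chr16:18776847-18778262) encodes claudin-5, the main tight junction claudin of brain endothelium. In the home cage it was at 8.25 and 8.83 FPKM in WT-labelled libraries and at 10.29 and 11.84 in KO-labelled ones. After exploration it was at 10.38, 11.54 and 8.17 FPKM in WT-labelled and at 8.89, 9.81 and 11.05 in KO-labelled libraries. The home cage groups did not overlap, and the exploration groups did.

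Slc2a1 (gene ID 20525, chr4:119108745-119137330) encodes the glucose transporter GLUT1, which astrocytes also make. It was at 7.49 and 7.26 FPKM in WT-labelled and 9.11 and 9.28 in KO-labelled home cage libraries. After exploration it was at 9.32, 9.78 and 8.89 FPKM in WT-labelled and 8.72, 8.93 and 12.06 in KO-labelled libraries. The WT-labelled home cage pair was lowest of all 10, and KO-labelled exploration library 3 was highest. Per unit of Cldn5, Slc2a1 stayed between 0.78 and 1.09 over the 10 libraries.

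Among adhesion genes, Pecam1 (gene ID 18613, chr11:106654213-106715281) encodes CD31, an adhesion protein of endothelial contacts that platelets and white blood cells also carry. It was at 0.97 and 1.12 FPKM in WT-labelled and 1.22 and 1.92 in KO-labelled home cage libraries. After exploration it was at 1.55, 1.32 and 1.18 FPKM in WT-labelled and 0.99, 1.38 and 1.78 in KO-labelled libraries. The home cage groups lay apart, and after exploration the KO-labelled range enclosed the WT-labelled one.

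Cdh5 (gene ID 12562, chr8:104101613-104144504) encodes VE-cadherin, the adherens junction protein specific to endothelium. Its values were 0.44 and 0.33 FPKM in WT-labelled and 0.42 and 0.81 in KO-labelled home cage libraries, and 0.64, 0.63 and 0.49 in WT-labelled and 0.21, 0.48 and 0.89 in KO-labelled exploration libraries. The KO-labelled exploration libraries held both the lowest and the highest value of all 10.

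Growth factor receptors were scarce. Flt1 (gene ID 14254, chr5:147561604-147726438), the VEGF receptor 1 that also exists as a soluble decoy, was at 0.89 and 1.09 FPKM in WT-labelled and 1 and 1.68 in KO-labelled home cage libraries. After exploration it was at 1.06, 1.16 and 1.17 FPKM in WT-labelled and 0.75, 1.52 and 1.31 in KO-labelled libraries. Its groups overlapped in both environments, and the KO-labelled libraries spread more widely (SD 0.481 and 0.398 FPKM) than the WT-labelled ones (0.141 and 0.0608).

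Kdr (gene ID 16542, chr5:75932827-75979072), the VEGF receptor 2 that carries most of the growth signal, was at 0.33 and 0.43 FPKM in WT-labelled and 0.35 and 0.74 in KO-labelled home cage libraries. After exploration it was at 0.59, 0.57 and 0.26 FPKM in WT-labelled and 0.12, 0.29 and 0.39 in KO-labelled libraries. Flt1 was above Kdr in every library.

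Tek (gene ID 21687, chr4:94739086-94874976) encodes Tie2, the receptor of the angiopoietins. It was at 0.6 and 0.53 FPKM in WT-labelled and 0.35 and 0.74 in KO-labelled home cage libraries, and at 0.81, 0.69 and 0.55 in WT-labelled and 0.35, 0.6 and 0.42 in KO-labelled exploration libraries. All of its groups overlapped in both genotype comparisons.

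Surface and secreted markers completed the set. Ly6c1 (gene ID 17067, chr15:75044018-75048920) encodes a small lipid-anchored surface protein of capillary endothelium that some white blood cells also carry. It was at 9.2 and 7.65 FPKM in WT-labelled and 12.13 and 13.69 in KO-labelled home cage libraries. After exploration it was at 10.98, 11.79 and 9.3 FPKM in WT-labelled and 9.99, 11.6 and 11.51 in KO-labelled libraries. The KO-labelled home cage pair was highest of all 10, and the WT-labelled home cage pair was lowest. Its close copy Ly6c2, which monocytes carry, was listed at 0 in 8 of 10 libraries and at 0.06 and 0.07 FPKM in the others, and how fragments were shared between the copies is uncertain.

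Emcn (gene ID 59308, chr3:137341062-137431069) encodes endomucin, a sialomucin of capillary and venous endothelium. It was at 1.69 and 1.79 FPKM in WT-labelled and 1.03 and 2.05 in KO-labelled home cage libraries, and at 2.16, 1.9 and 2.02 in WT-labelled and 1.8, 1.92 and 2.55 in KO-labelled exploration libraries. The KO-labelled home cage libraries enclosed the WT-labelled pair and included the lowest value of all 10, in library 1.

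Vwf (gene ID 22371, chr6:125552948-125686679) encodes von Willebrand factor, a clotting protein of larger vessels, mainly veins. It was at 0.09 and 0.05 FPKM in WT-labelled and 0.12 and 0.2 in KO-labelled home cage libraries, and at 0.15, 0.12 and 0.09 in WT-labelled and 0.11, 0.19 and 0.13 in KO-labelled exploration libraries. Its home cage groups did not overlap, at a level of few fragments per library.

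In the home cage, endothelial genes were mostly higher in KO-labelled libraries, and 1 of the 6 tested genes passed the test. Ly6c1 was called higher, at 12.91 ± 1.1 FPKM in KO-labelled and 8.43 ± 1.1 in WT-labelled libraries (SD, n = 2 each). Its log2 change was 0.56 with an SE of 0.13 (limma adjusted p 0.0377). Of all 11892 genes 3.57% were called in this comparison, 2.12% higher and 1.45% lower. The change of Ly6c1 was above 0 under each of the alternatives, but the call ended when any of 5 libraries was left out (WT-labelled home cage 1 or 2, KO-labelled home cage 2, WT-labelled exploration 1, KO-labelled exploration 2), with log2 changes of 0.45 to 0.68 over all omissions.

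The other tested genes had home cage log2 changes of 0.34 for Cldn5 (95% interval 0.02 to 0.65, limma adjusted p 0.243), 0.28 for Slc2a1 (limma adjusted p 0.28), 0.32 for Pecam1, 0.22 for Flt1 and -0.14 for Emcn. Their median with Ly6c1 was 0.3, against -0.02 over all tested genes. Libraries of the groups did not overlap for 4 of the 6 tested genes, all higher in KO-labelled libraries, where 21% of all tested genes lay apart in that direction and 25.9% in the other. Those 4 were Ly6c1, Cldn5, Slc2a1 and Pecam1. Fitted with no filter on low values, Vwf, Tek, Kdr and Cdh5 had log2 changes of 0.12, -0.03, 0.15 and 0.21 and a lowest limma adjusted p of 0.296.

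After exploration, no tested endothelial gene was called between the labels. Of the 6 tested genes 0 passed by limma and 0 had an unadjusted p under 0.05, where 0.597% of all genes were called, 0.193% higher and 0.404% lower. Log2 changes ran from -0.01 for Cldn5 (95% interval -0.27 to 0.25) to 0.07 for Slc2a1 (-0.17 to 0.3), with 0.04 for Ly6c1 (-0.18 to 0.27). These intervals do not show that the groups were equal. None of the 10 genes had groups that lay apart, where 11.4% of all tested genes lay apart and higher and 13.5% lower. Among the 4 scarce genes, Kdr was at 0.473 ± 0.185 FPKM in WT-labelled and 0.267 ± 0.137 in KO-labelled libraries (SD, n = 3 each), and Tek at 0.683 ± 0.13 and 0.457 ± 0.129. Fitted with no filter, on a scale that shrinks changes at such low levels, the 4 had log2 changes of -0.22 for Kdr, -0.21 for Tek, -0.08 for Cdh5 and 0.03 for Vwf, with a lowest limma adjusted p of 0.426.

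**Figure D2:**
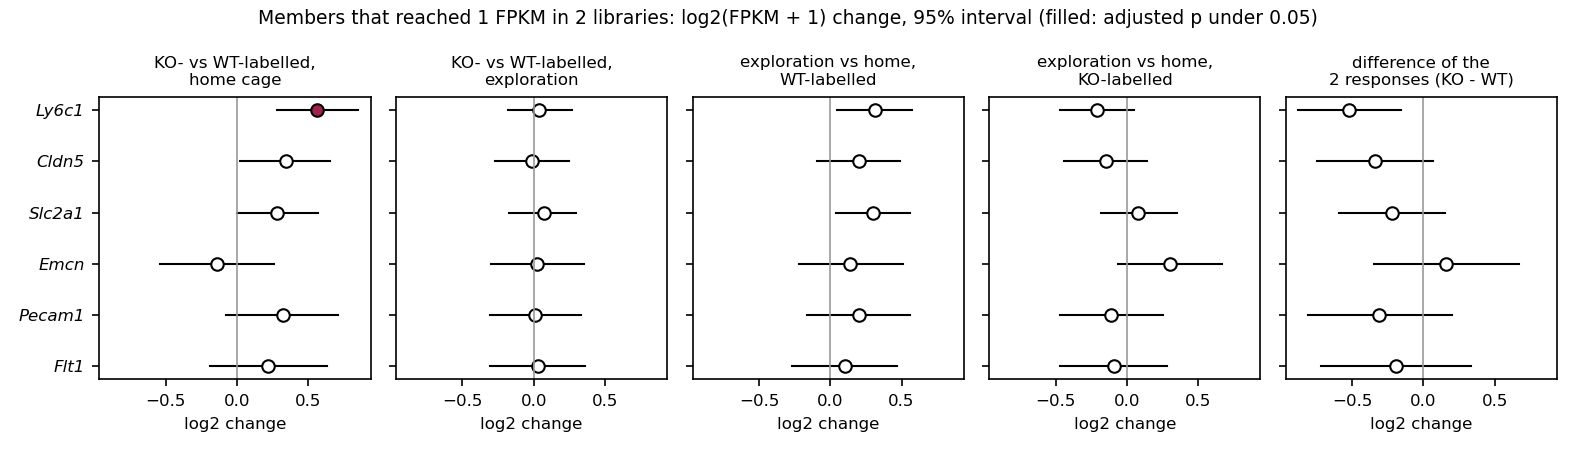
Log2 change on the log2(FPKM + 1) scale (horizontal axis) of the 6 tested endothelial genes in the 5 comparisons; bars are 95% intervals from limma, and the filled point passed an adjusted p of 0.05. Ly6c1 in the home cage, at 0.56, is the filled point, and every interval of the exploration comparison between labels crosses 0.

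The response to exploration was read within each label. Each environment sits in its own table and whether the tables were scaled together is not stated, so an environment cannot be told apart from a table. In WT-labelled mice all 6 tested genes were higher after exploration by log2 changes of 0.1 to 0.31, and 0 passed by limma, where 6.31% of all genes were called, 2.02% higher and 4.29% lower. The unadjusted p was under 0.05 for Ly6c1 (log2 change 0.31, limma adjusted p 0.141) and Slc2a1 (0.3, limma adjusted p 0.159). Slc2a1 was called when only the WT-labelled groups were fitted (limma adjusted p 0.0387) and when KO-labelled exploration library 3 was left out (0.0423). Emcn, Ly6c1, Pecam1 and Slc2a1 had groups that lay apart, 4 of 6 tested genes, where 19.7% of all tested genes lay apart in that direction and 28.1% in the other. This comparison and the home cage one share the same 2 WT-labelled home cage libraries, which were the lowest or next to lowest of the 10 for Slc2a1, Ly6c1 and the summed level.

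In KO-labelled mice 0 of the 6 genes passed by limma and 0 had an unadjusted p under 0.05, where 28.6% of all genes were called, 12% higher and 16.6% lower. Log2 changes were -0.21 for Ly6c1 (95% interval -0.47 to 0.05), -0.15 for Cldn5, -0.11 for Pecam1, -0.09 for Flt1, 0.08 for Slc2a1 and 0.3 for Emcn (-0.06 to 0.67). Ly6c1 lay apart and lower after exploration, 1 of 6 tested genes, where 29.9% of all tested genes lay apart in that direction and 22.2% in the other. Kdr, fitted with no filter, had a log2 change of -0.28 (limma adjusted p 0.201).

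The difference between the labels in this response was tested as an interaction. Of the 6 genes 0 passed by limma, where 0.875% of all genes were called, 0.362% higher and 0.513% lower, and 1 had an unadjusted p under 0.05. Ly6c1, at -0.52 (SE 0.17, 95% interval -0.88 to -0.16), had an unadjusted p of 0.00904 and a limma adjusted p of 0.144. The other tested genes ran from -0.34 for Cldn5 to 0.16 for Emcn, with a lowest limma adjusted p among them of 0.4.

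Within groups the endothelial genes moved together in some libraries and not in others. These counts were not set against those of all tested genes, and in a group of 2 a gene above the mean in 1 library is below it in the other. KO-labelled home cage library 2 was above its group mean for all 10 genes, and held the highest value of the 10 libraries for 6 of them. KO-labelled exploration library 1 was below its group mean for all 10, and library 3 of that group was above for 8. WT-labelled exploration library 3 was below for 9. WT-labelled home cage libraries had 5 genes above and 5 below each, as did KO-labelled exploration library 2. The median deviation from the group mean was 0.18 (log2) in KO-labelled home cage library 2 and -0.15 in KO-labelled exploration library 1, as large as several of the changes between groups.

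Markers of other non-neuronal cells moved with the same libraries. The summed level of the 8 astrocyte genes was 170.77 to 186.44 FPKM in the WT-labelled and 259.85 to 303.61 in the KO-labelled home cage libraries, 206.82 to 269.29 in the WT-labelled and 251.04 to 292.15 in the KO-labelled exploration libraries. Gfap, a filament protein of astrocytes, was called higher in KO-labelled home cage libraries (13.96 ± 1.01 against 34.77 ± 7.04 FPKM, n = 2 and 2, log2 change 1.24, limma adjusted p 0.011), as were Aldoc and Aqp4, the water channel of astrocyte endfeet on vessels. Leaving out WT-labelled home cage library 1 ended all 3 calls, as did leaving out KO-labelled home cage library 2, and that of Aqp4 also ended without WT-labelled home cage library 2. The 8 microglia genes summed to 53.72 to 60.55 FPKM in the WT-labelled and 70.41 to 74.15 in the KO-labelled home cage libraries, and the 8 oligodendrocyte genes to 154.52 to 180.4 and 211.05 to 252.71 FPKM. In the home cage 3 of 8 astrocyte, 1 of 8 microglia and 1 of 8 oligodendrocyte genes were called higher and none lower, where 2.12% of all tested genes were called higher and 1.45% lower. The microglia gene, P2ry12, and the oligodendrocyte gene, Olig1, each lost the call in 6 of 10 omissions. Of the 8 CA1 neuron genes 1 was called higher and 1 lower, Wfs1 (log2 change -1.17, limma adjusted p 0.0358, not called in 6 of 10 omissions). After exploration in WT-labelled mice, all 8 astrocyte, all 8 microglia and all 8 oligodendrocyte genes were higher. Their median log2 changes were 0.38, 0.37 and 0.54, against 0.2 for the 6 tested endothelial genes. By limma 4, 3 and 4 were called higher and 0 lower, where 2.02% of all tested genes were called higher and 4.29% lower. Each of these calls ended when either WT-labelled home cage library was left out. The part of these cells in the endothelial result was not tested.

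**Figure D3:**
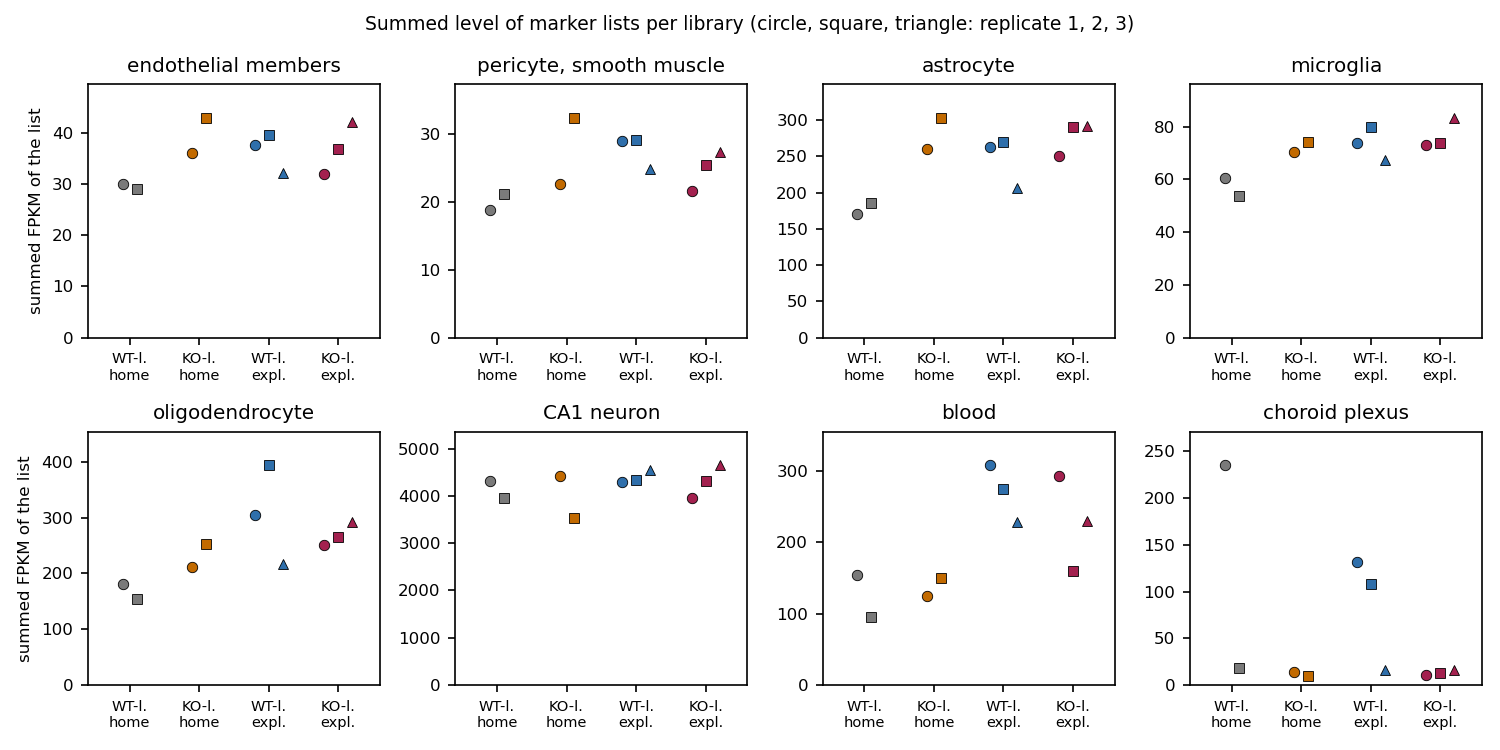
Summed FPKM (vertical axes from 0, a separate scale per list) of the 10 endothelial genes and of 7 marker lists of other cells in the 4 groups; points are libraries, with circle, square and triangle for replicates 1, 2 and 3. The WT-labelled home cage libraries are lowest for the endothelial, astrocyte and microglia sums, and 3 WT-labelled libraries stand apart for choroid plexus.

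Other cells of the vessel wall were read from marker lists. Pericyte and smooth muscle genes (15, of which 6 were tested) summed to 18.88 to 21.23 FPKM in the WT-labelled and 22.74 to 32.49 in the KO-labelled home cage libraries, with 0 called by limma and 3 at an unadjusted p under 0.05. In the KO-labelled mice Tagln, an actin binding protein of smooth muscle, rose after exploration (log2 change 0.79, limma adjusted p 0.00414) and Vtn, which pericytes secrete, fell (-0.55, limma adjusted p 0.026). Both calls ended without KO-labelled home cage library 2, and that of Vtn also without KO-labelled exploration library 1 or 2. In this comparison 12% of all tested genes were called higher and 16.6% lower. Perivascular fibroblast genes summed to 42.71 FPKM in KO-labelled home cage library 2 and 6.29 to 13.77 in the other 9 libraries. Most of this was Dcn, a matrix proteoglycan, at 27.24 FPKM in that library and at most 2.82 in the others. Igfbp2, a secreted binding protein of insulin-like growth factors, was also highest there at 14.14 FPKM, while the collagens Col1a1, Col1a2 and Col3a1 were at most 0.32 FPKM in any library. Lum and Slc6a13, also on the list, were at most 0.37 and 0.46 FPKM. The sum thus rested mostly on Dcn and Igfbp2, and does not by itself show more fibroblasts. Dcn and Igfbp2 were the 2 genes tested of the 7 on the list. In the home cage 2.12% of all tested genes were called higher. Dcn passed the filter of 1 FPKM only through KO-labelled libraries, as the WT-labelled ones had 0.2 to 0.76 FPKM. It entered the test by the label where it was high. Dcn was called higher in KO-labelled home cage libraries (log2 change 2.87, limma adjusted p 0.0391), and the call ended in 7 of 10 omissions (log2 1.42 without KO-labelled home cage library 2). Igfbp2 was called higher there too (5.45 ± 0.0212 against 12.32 ± 2.57 FPKM, n = 2 and 2, log2 change 1.03, limma adjusted p 0.0323), a call that 4 of 10 omissions ended. In KO-labelled mice both fell after exploration, Dcn by 2.45 on the log2 scale (limma adjusted p 0.0138) and Igfbp2 by 0.74 (limma adjusted p 0.0211). Those calls ended without KO-labelled home cage library 2, and that of Igfbp2 also without KO-labelled exploration library 2 or 3. The 5 perivascular macrophage genes summed to at most 1.05 FPKM, and none was tested.

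Globin RNA, read as a marker of blood, was present in all libraries. The 8 genes of the blood list summed to 94.85 to 154.09 FPKM in the home cage and 159.95 to 308.41 after exploration, and the ranges of the environments did not overlap. Nearly all of this was globin, as Alas2, Slc4a1, S100a8 and S100a9 stayed under 1 FPKM in every library. Of these genes 4 were tested. In WT-labelled mice 3 were called higher after exploration, where 2.02% of all tested genes were called higher and 4.29% lower. In KO-labelled mice 1 was, Hbb-bs, where 12% were called higher and 16.6% lower. Hbb-bs, an adult beta globin, rose after exploration from 34.9 ± 10.3 to 88.64 ± 10.9 FPKM in WT-labelled mice (n = 2 and 3, log2 change 1.34, limma adjusted p 0.00684) and from 40.38 ± 8.92 to 83.99 ± 25.6 in KO-labelled mice (log2 change 1.01, limma adjusted p 0.0091). The Hbb-bs calls ended without WT-labelled home cage library 2 and without KO-labelled home cage library 1, respectively (log2 changes 1.05 to 1.64 and 0.78 to 1.24 over the omissions). The part of blood in the endothelial values was not tested.

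Of 13 ligands and co-receptors of the VEGF and angiopoietin pathways, 12 were measured and 6 tested. Vegfc, a ligand of VEGF receptors 3 and 2, was lower in KO-labelled exploration libraries (1.06 ± 0.121 against 0.343 ± 0.0723 FPKM, n = 3 and 3, log2 change -0.62, limma adjusted p 0.0336), the only call among them in the 5 comparisons. Between the labels after exploration 0.193% of all tested genes were called higher and 0.404% lower. Vegfc was also lower in the KO-labelled home cage libraries (1.08 ± 0.184 against 0.47 ± 0.0424 FPKM) without passing there. The exploration call ended without any of the 6 exploration libraries (log2 change -0.65 to -0.57). Vegfc lay near the filter of 1 FPKM, which only WT-labelled libraries reached. WT-labelled libraries had 0.95 to 1.21 FPKM in the home cage and 0.97 to 1.2 after exploration, and KO-labelled ones at most 0.5 and 0.39. The exploration call held with no filter on low values, and ended with quantile normalization and with only the groups compared.

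Barrier transporters, 14 of 17 tested, had 1 gene called in the home cage. Slco1c1, a thyroid hormone transporter of brain endothelium and astrocytes, rose from 3.11 ± 0.0566 to 5.42 ± 1.08 FPKM in KO-labelled libraries (n = 2 and 2, log2 change 0.63, limma adjusted p 0.0453). The call ended in 6 of 10 omissions (log2 change 0.46 to 0.8). Above 0 were 12 of the 14, with a median of 0.17 against -0.02 over all tested genes. In KO-labelled mice Tfrc, the transferrin receptor, rose after exploration (15.41 ± 1.84 to 22.33 ± 2.99 FPKM, n = 2 and 3, log2 change 0.5, limma adjusted p 0.0168), a call that ended without KO-labelled home cage library 2 or exploration library 2. No transporter was called between the labels after exploration or in WT-labelled mice between environments. Of all tested genes 3.57% were called between the labels in the home cage and 28.6% in KO-labelled mice between environments.

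Junction and adhesion partners (10 of 13 tested) had 0 calls between labels in the home cage, with 3 at an unadjusted p under 0.05 by limma, and 0 after exploration, with 1. The shares of all tested genes called in these 2 comparisons were 3.57% and 0.597%. In KO-labelled mice Esam, an endothelial adhesion molecule, rose after exploration (log2 change 0.41, limma adjusted p 0.0327) and Ctnnd1, the catenin bound to cadherins, fell (-0.36, limma adjusted p 0.0292). Esam lost its call without KO-labelled home cage library 2 or exploration library 3, and Ctnnd1 without that home cage library or exploration library 1 or 2. Of 20 further endothelial surface genes 13 were tested, and 2 were called, both in KO-labelled mice between environments: Itm2a rose by 0.39 (limma adjusted p 0.00782) and Palmd fell by 0.55 (limma adjusted p 0.0062), neither without KO-labelled home cage library 2. In this comparison, that of Esam and Ctnnd1 too, 12% of all tested genes were called higher and 16.6% lower.

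Transcription factors and Notch and Wnt pathway genes of endothelium (9 of 24 tested) had 1 call in the home cage between labels and 0 after exploration (3 at an unadjusted p under 0.05 by limma). The shares of all tested genes called between labels were 3.57% and 0.597%. Between environments 2 were called in WT-labelled mice and 4 in KO-labelled mice, comparisons in which 6.31% and 28.6% of all tested genes were called. In WT-labelled mice Klf2, a flow-responsive factor, rose after exploration from 1.37 ± 0.0636 to 2.91 ± 0.42 FPKM (n = 2 and 3, log2 change 0.72, limma adjusted p 0.0236). Reck, a Wnt7 co-receptor in brain endothelium, fell from 3.14 ± 0.134 to 1.36 ± 0.204 FPKM (log2 change -0.81, limma adjusted p 0.0103). Klf2 lost its call without any of the 5 WT-labelled libraries and Reck without either WT-labelled home cage library. Apcdd1, a Wnt target of barrier endothelium, was higher in KO-labelled home cage libraries (4.99 ± 1.46 against 2.27 ± 0.177 FPKM, log2 change 0.86, limma adjusted p 0.0377), a call that 6 of 10 omissions ended. In KO-labelled mice it fell after exploration (-0.8, limma adjusted p 0.0085), as did Axin2 (-0.77, limma adjusted p 0.00285), while Hey1 rose by 0.41 (limma adjusted p 0.0134) and Tspan12 by 0.29 (limma adjusted p 0.0462). All 4 lost the call without KO-labelled home cage library 2, and Tspan12 in 8 of 10 omissions. These genes are also expressed outside endothelium.

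Arteriole and venule genes (5 of 10 tested) gave 1 home cage call. Nr2f2, a factor of venous identity that interneurons also express, was at 1.42 ± 0.707 FPKM in WT-labelled and 6.6 ± 1.65 in KO-labelled home cage libraries (n = 2 and 2, log2 change 1.66, limma adjusted p 0.0137). The call ended when WT-labelled home cage library 1 was left out, and when KO-labelled home cage library 2 was. In KO-labelled mice it fell after exploration (log2 change -1.5, limma adjusted p 0.00239), as did Efnb2, an arterial ligand (-0.78, limma adjusted p 0.00202), and both calls held in each of the 10 omissions. The share of all tested genes called was 3.57% between the labels in the home cage and 28.6% in KO-labelled mice between environments. Vwf, a mainly venous marker among the 10 genes, was below the filter and could not be called. Fitted with no filter on low values, it had a home cage log2 change of 0.12 (limma adjusted p 0.296).

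Genes that rise in low oxygen were read because Slc2a1 is one of their class (11 of 15 tested). In the home cage 1 was called, Ndrg1, where 2.12% of all tested genes were called higher and 1.45% lower. Of the 11 tested, 7 were above 0 and 4 below, so the list did not move in 1 direction. Ndrg1 was at 4.44 ± 1.65 FPKM in WT-labelled and 40.9 ± 19.1 in KO-labelled libraries (n = 2 and 2, log2 change 2.9, limma adjusted p 0.01). Its call was ended by the same omissions as the home cage call of Nr2f2. In KO-labelled mice 5 of the 11 were called after exploration, 3 higher and 2 lower, where 12% of all tested genes were called higher and 16.6% lower. Ndrg1 (-2.34, limma adjusted p 0.00258) and Pdk1 (-0.69, limma adjusted p 0.00439) fell, and Bnip3 (0.66, limma adjusted p 0.00213) and Ankrd37 (0.48, limma adjusted p 0.0142) rose. Of these, the call of Bnip3 held in each of the 10 omissions, and the other 3 ended without KO-labelled home cage library 2, that of Ankrd37 also without library 1. Slc2a1 was not called beside them in KO-labelled mice (0.08).

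The profile over the 10 libraries was then compared with that of other genes. The median z-score of the 6 tested members was lowest in WT-labelled home cage library 1 (-1.12) and highest in KO-labelled home cage library 2 (1.44) and KO-labelled exploration library 3 (1.11). Pecam1 lay nearest to this median profile, with a root-mean-square difference of 0.293 SD, and Emcn farthest at 0.884. Over 11426 other genes the median difference was 1.257 SD. The 5 nearest of them were Slc1a2 (0.374), Pygb (0.399), Igfbp7 (0.416), Orai1 (0.421) and Maob (0.422). Slc1a2, the main glutamate transporter of astrocytes, was at 26.16 and 30.9 FPKM in WT-labelled and 33.59 and 47.59 in KO-labelled home cage libraries. Igfbp7, a secreted protein of brain vessels, was at 4.54 and 3.96 FPKM and at 5.72 and 7.86 in the same groups. This likeness is a description over 10 libraries, and 11426 genes were searched for it.

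**Figure D4:**
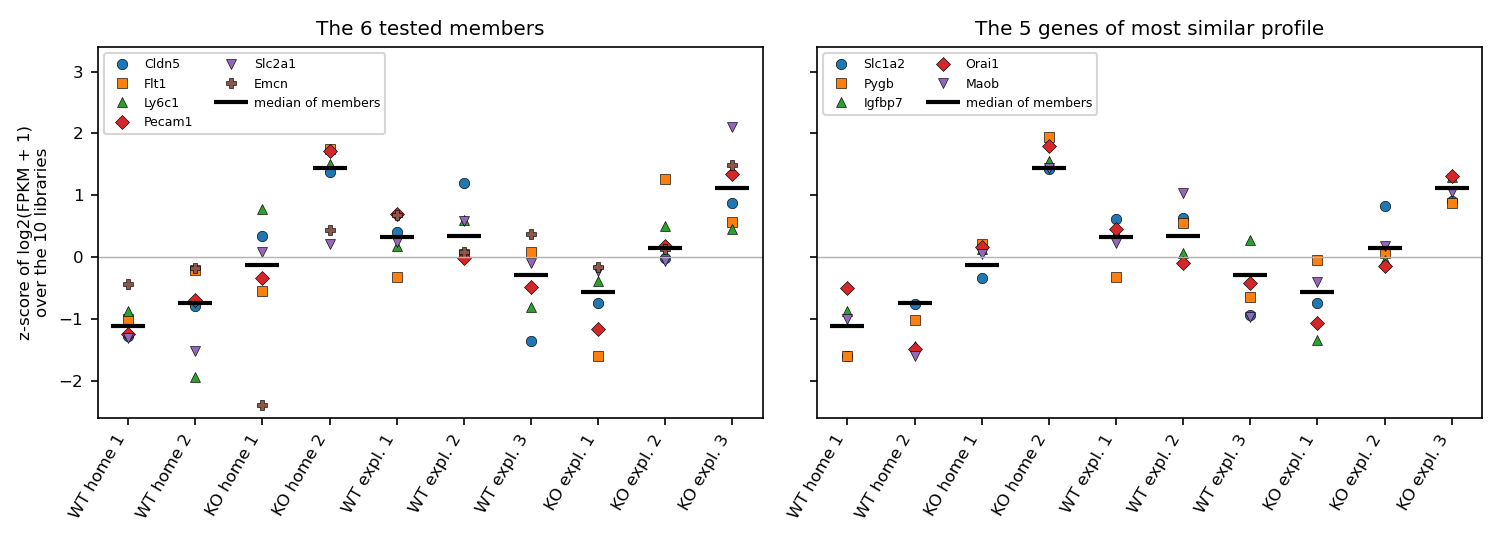
Z-score of log2(FPKM + 1) over the 10 libraries (vertical axis) for the 6 tested endothelial genes (left) and the 5 genes of most similar profile (right); symbols are genes and bars the median of the 6. The bars run from -1.12 in WT-labelled home cage library 1 to 1.44 in KO-labelled home cage library 2, and Emcn departs most in KO-labelled home cage library 1.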

How the data were processed

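Values were FPKM per gene and library as the authors deposited them, in 2 blocks (6 exploration and 4 home cage libraries), joined here on gene ID. The submitters' processing notes name HISAT, Bowtie2, StringTie, GATK and RSEM and the builds GRCm38 and mm10, with no versions or roles. Strand use and any filter are not given in the sources used here. Genes in 1 block alone (1170 and 271, at most 1.03 and 0.87 FPKM) were left out.

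Fragments per library were estimated as the depth at which low FPKM values fell nearest to whole fragment numbers, given GENCODE transcript lengths. At that depth, chosen for this nearness, 45.8% to 52.9% of low values lay within 0.1 of a whole fragment, so no count test was run. Limma 3.58.1 (R 4.3.3) was fitted to log2(FPKM + 1), which understates changes of low genes. Genes needed 1 FPKM in 2 libraries, all 10 libraries shared 1 fit with 4 group means and a variance trend (6 residual and 5.71 prior degrees of freedom), and Benjamini-Hochberg adjustment ran over 11892 genes, called under 0.05. The fit was tested on simulated data. The 10 genes, the lists and the alternatives were chosen with earlier results of these data known. List genes were named by rule: at most 4 called genes per list and comparison. Likeness named the 5 genes whose z-scored profile was nearest to the median of the tested members.

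Results were recomputed without the filter or with one at 5 FPKM in 2 libraries, with 0.1 as the pseudocount, with size factors, quantile normalization, no variance trend, only the groups compared, and leaving out each library. Added after seeing the data were leaving out the 3 libraries with high choroid plexus markers, and leaving out WT-labelled home cage library 1 with KO-labelled home cage library 2.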

Additional observations from a re-analysis of the deposited data

Results flagged for a closer look

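Among the genes named from the lists, 2 differed between the labels in their response to exploration by the interaction test. For Nr2f2 the difference was -1.88 (log2, limma adjusted p 0.0496), where the KO-labelled home cage libraries lay above all others. For Ndrg1 it was -2.92 (limma adjusted p 0.0496). Both calls ended in 6 of 10 omissions of a library, with differences of -2.18 to -1.57 and -3.4 to -2.43, with no filter on low values (adjusted p 0.123 each), with the lower pseudocount (0.0591 each) and with no variance trend (0.0664 each). The libraries whose omission ended both calls were WT-labelled home cage 1, KO-labelled home cage 2, WT-labelled exploration 1 and 2, and KO-labelled exploration 2 and 3.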

How the results depend on the processing

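No paired analysis was possible because the labels carry animal codes and no replicate numbers that the groups share. The count of 1 called endothelial gene in the home cage became 0 with no filter on low values, with only the groups compared and in both sets of omitted libraries chosen after seeing the data, and was 0 to 1 when single libraries were left out. In WT-labelled mice the count of 0 became 1 with only the groups compared, and was 0 to 1 over omissions. The counts of the other 3 comparisons were 0 under all alternatives run.

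Of 549 alternative values for the 30 log2 changes of the tested members, 510 kept their direction and side of the threshold, 9 lost and 2 gained a call, and 28 turned sign, all of them uncalled changes. Quantile normalization turned Cldn5 after exploration between labels to 0.01, and Flt1 and Pecam1 in KO-labelled mice to 0.08 and 0.06. Without the 3 libraries of high choroid plexus markers Cldn5 turned to 0.25 between labels after exploration and -0.1 in WT-labelled mice. Without WT-labelled home cage library 1 and KO-labelled home cage library 2 Flt1 turned to -0.06 between labels in the home cage, 0.12 in KO-labelled mice and 0.09 in the interaction, and Pecam1 to 0.09 in KO-labelled mice. Over omissions of single libraries the changes that turned sign spanned, between labels after exploration -0.13 to 0.09 for Cldn5, -0.08 to 0.18 for Flt1, -0.11 to 0.13 for Pecam1, -0.07 to 0.14 for Slc2a1, -0.04 to 0.11 for Ly6c1 and -0.08 to 0.09 for Emcn; in KO-labelled mice -0.31 to 0.12 for Flt1, -0.31 to 0.09 for Pecam1 and -0.05 to 0.16 for Slc2a1; in the interaction -0.41 to 0.02 for Flt1 and -0.13 to 0.46 for Emcn; between labels in the home cage -0.43 to 0.15 for Emcn.

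The counts over all tested genes, which give the background shares, moved more. In the home cage 425 calls became 47 with no filter and 13 to 588 over omissions, lowest without KO-labelled home cage library 2 (15 without WT-labelled home cage library 1). After exploration 71 became 16 with no filter, 37 with no variance trend, 36 with only the groups compared and 17 to 102 over omissions. In WT-labelled mice 750 became 1690 with only the groups compared, 492 with the higher filter and 87 to 1004 over omissions, and in KO-labelled mice 3400 became 1705 and 535 to 3597, lowest without KO-labelled home cage library 2. The 104 interaction calls became 0 with the lower pseudocount, no filter or no variance trend, 68 with the higher filter, and 0 to 462 over omissions. Size factors and quantile normalization moved the share of calls that were higher by less than 10 percentage points and the median change of all genes by less than 0.1. Few fragments limit Vwf, Kdr, Cdh5 and Tek, and groups of 2 and 3 limit all comparisons.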

Other observations

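Plvap, a protein of the diaphragms of leaky endothelium that is scarce in barrier vessels, was singled out after its values were seen. It was above Pecam1 in all 10 libraries, at 8.87 and 10.23 FPKM in WT-labelled and 6.57 and 7.11 in KO-labelled home cage libraries, and at 8.64, 8.29 and 10.17 in WT-labelled and 6.83, 6.99 and 3.68 in KO-labelled exploration libraries. The KO-labelled libraries lay below the WT-labelled ones in both environments. Of all tested genes 25.9% lay apart in that direction in the home cage and 13.5% after exploration. It did not pass in the home cage (log2 change -0.43, limma adjusted p 0.317) or after exploration (-0.59, limma adjusted p 0.136). The 3 libraries with high choroid plexus markers are all WT-labelled and had 8.87, 8.64 and 8.29 FPKM of Plvap, against 10.23 and 10.17 in the other WT-labelled libraries. The part of choroid plexus in this difference was not tested. Of the 8 genes of endothelial activation and leakage 7 were measured and 2 tested, with 0 called by limma in the 5 comparisons and 1 at an unadjusted p under 0.05 in 4 of them. Sele, the inducible adhesion molecule E-selectin, was listed at 0 in all 10 libraries.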
